A study of Mus musculus with 30 samples.

Results

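These results concern the reads of the IG-CGI amplicon that were mostly unmethylated, and the few methylated calls left on them. A read was taken when it had 5 or more CpG calls and at most 30% of them were methylated, counted over the 29 CpGs of the amplicon (positions 55 to 273 of its reference). Of 22349 reads with 5 or more calls in 17 libraries, 8307 met this rule, 2385 lay between and 11657 were mostly methylated (at least 70% of calls). A methylated call on a mostly unmethylated read is called a stray call below. The reads were chosen by the share of methylated calls of each read, so the number of mostly unmethylated reads, the stray calls per read and the stray rate are descriptions and were not tested. The share of fully unmethylated reads is a description of the same kind. Where the stray calls lie within a read was not used by the rule.

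The IG-CGI is a CpG-rich stretch of the intergenic control region of the imprinted Dlk1-Dio3 domain on mouse chromosome 12, between Dlk1 (109452485 to 109463336 in mm10) and the non-coding RNA gene Meg3 (109540996 to 109571729). Imprinted control regions carry methylation on one parental copy only. Here the paternal copy is methylated and the maternal copy is kept free of methylation, which lets the maternal non-coding RNAs of the domain be expressed. After each round of replication the maintenance methyltransferase Dnmt1 copies methylation to the new strand, and Tet enzymes oxidise methylcytosine. Gzf1 is the zinc finger protein deleted in most of the mutant samples. The amplicon was not placed at genome coordinates, and the reads carry no mark of parental origin in these files, so a mostly unmethylated read is not assigned to a parent.

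Bisulfite-converted DNA was amplified by nested PCR and read as amplicons in 30 mouse libraries, of which 17 were aligned to the endogenous IG-CGI. V6.5 mouse embryonic stem cells (mESC) were wild type, Gzf1 knockout or Dnmt1 knockout, and a separate line, Tet-TKO, was Tet triple knockout. Trunk of E10.5 embryos was wild type or Gzf1 knockout, and mature MII oocytes were wild type (1 library) or Gzf1 knockout (2 libraries). Tail came from a wild-type adult, a Gzf1 knockout adult and 5 heterozygous animals whose mothers were Gzf1 knockout and whose fathers were wild type. A Gzf1 knockout pup found dead at birth carries the adult tail label. The labels call the heterozygous animals adult mice in one field and pups in another. They do not say whether a knockout line is 1 clone, how the alleles were made, whether embryos or oocytes were pooled, or whether the heterozygous animals were littermates, so p-values over them measure only the spread between these libraries.

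Of the 12 groups, 10 had 1 library, so most comparisons set one library beside another. The libraries held 414 to 1913 reads with 5 or more calls, and 15 of them held 78 to 1178 mostly unmethylated reads. The 2 Gzf1 knockout oocyte libraries held none, in 1472 and 786 reads, so their share is at most 0.204% and 0.382% at this depth. They are left out below. The submitters' names show that the trunk libraries shared a sequencing order, that the wild-type and knockout tails shared another, and that the heterozygous tails and the dead pup shared an order of their own. The mESC genotypes, except Dnmt1 and Tet triple knockout, came from separate orders. Reads from PCR that carry no molecular identifiers cannot count as separate molecules, so all intervals, Fisher tests and limits set by a count of 0 cover counting error only.

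Mostly unmethylated reads were cleanest in oocytes and in mESC, less clean in trunk and least clean in tail. In wild-type oocytes 91.9% of these reads had no methylated call (1083 of 1178, Wilson 95% interval 90.2 to 93.4). In wild-type mESC the share was 73.9% (538 of 728, interval 70.6 to 77.0). In wild-type trunk it was 46.7% (329 of 705, interval 43.0 to 50.4), and in the wild-type tail 23.9% (182 of 762, interval 21.0 to 27.0). The intervals of these 4 wild-type libraries do not overlap, but they cover counting error only, and the share depends on the bound. With a bound of 20% it was 91.9%, 75.6%, 48.9% and 27.7% in the same order. Each source had 1 wild-type library, so source, animal and sequencing order cannot be told apart.

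The stray rate, which is the number of methylated calls per 100 calls on these reads, had the same order. It was 0.304% in wild-type oocytes (97 of 31864 calls), 1.88% in wild-type mESC (380 of 20252), 4.17% in wild-type trunk (828 of 19840) and 8.39% in the wild-type tail (1812 of 21598). A read carried on average 0.0823 stray calls in oocytes, 0.522 in mESC, 1.17 in trunk and 2.38 in the tail. The SD between reads was 0.281, 1.24, 1.69 and 2.27. Oocyte reads had at most 2 stray calls, and 2 reads had that many.

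The heterozygous tails were like the wild-type tail in this respect. Fully unmethylated reads made up 20.8%, 26.2%, 16.2%, 26.9% and 18.0% of the mostly unmethylated reads in animals 1 to 5, against 23.9% in the wild-type tail. The stray rates of these animals were 8.60%, 8.00%, 9.79%, 8.37% and 9.92%. Their mean stray rate of 8.93% ± 0.867 (SD, n = 5) lay 0.545 points above the wild-type tail, which is less than the SD between animals. The wild-type value lay within the range of the animals for both measures.

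**Figure D1:**
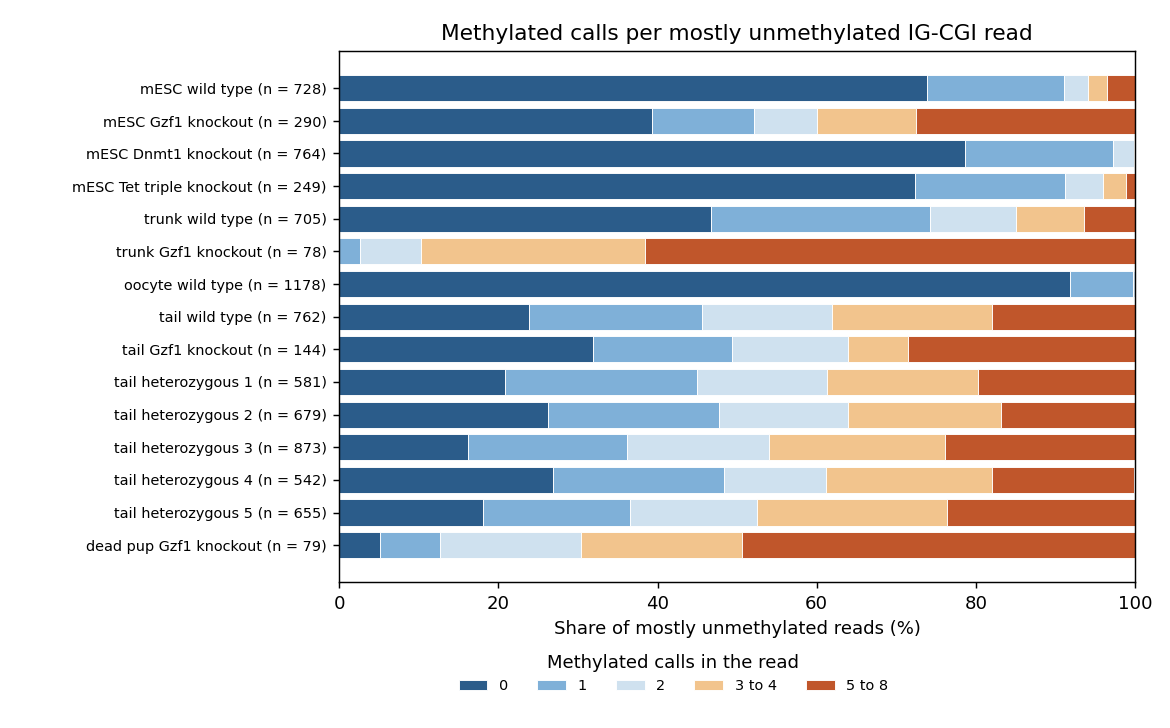
Share of mostly unmethylated IG-CGI reads (horizontal axis, %) with 0, 1, 2, 3 to 4 or 5 to 8 methylated calls, 1 bar per library with at least 50 such reads. Reads with 0 methylated calls make up 91.9% of the bar in wild-type oocytes and 23.9% in the wild-type tail, and there are none in Gzf1 knockout trunk.

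A read with at least 5 calls and 0 or 1 stray call always meets the 30% bound, so the share with 1 among these reads is not cut by the rule. It was 7.91% in wild-type oocytes (interval 6.50 to 9.59), 18.9% in wild-type mESC (16.1 to 22.0), 37.1% in wild-type trunk (33.1 to 41.3) and 47.6% in the wild-type tail (42.4 to 52.8). In the heterozygous tails it was 49.8% ± 4.96 (SD, n = 5), which was 2.26 points above the wild-type tail. An exact two-sided permutation test over the libraries gave p = 0.833, where the smallest p that 5 against 1 allows is 0.167.

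Dnmt1 knockout mESC give the level of stray calls in a library almost free of methylation. Of its 766 reads, 764 were mostly unmethylated, and their stray rate was 0.866% (185 of 21366 calls, interval 0.750 to 0.999). Wild-type mESC had a rate 1.01 points higher. The share of reads with 1 stray call among those with 0 or 1 was nearly equal, at 19.1% in the knockout (interval 16.4 to 22.1) and 18.9% in wild type. The excess of wild-type mESC lay in reads with many stray calls. Reads with 5 to 8 stray calls were 26 of 728 in wild type and 0 of 764 without Dnmt1, where 1 read had 3 and no read had more. Wild-type oocytes, whose reads were all mostly unmethylated, had a lower stray rate (0.304%) and share with 1 stray call (7.91%). The Dnmt1 knockout rate is therefore not a common floor for the libraries. How far errors of conversion or reading enter these rates was not tested.

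Tet triple knockout mESC resembled wild-type mESC. Fully unmethylated reads made up 72.3% of 249 mostly unmethylated reads (interval 66.4 to 77.5), against 73.9% in wild type. The stray rate was 1.65% against 1.88%, a difference of -0.225 points with a combined 95% half-width of 0.353. Since these cells are not V6.5, the genotype cannot be told apart from the line.

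The mostly unmethylated reads that remained without Gzf1 carried more stray calls in mESC and trunk. In Gzf1 knockout mESC there were 290 such reads (15.2% of reads with 5 or more calls, against 60.2% in wild type). Of them 39.3% had no methylated call (interval 33.9 to 45.0), and the stray rate was 8.67%, which is 6.79 points above wild type (half-width 0.642). In Gzf1 knockout trunk there were 78 such reads (4.20%, against 51.7% in wild type). None of the 78 was fully unmethylated, so that share is at most 3.85% at this depth. The stray rate was 18.7% against 4.17% in wild type. Reads with 5 to 8 stray calls made up 27.6% in knockout mESC and 61.5% in knockout trunk, against 3.57% and 6.38% in wild type.

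In the Gzf1 knockout tail the measures did not point one way. It held 144 mostly unmethylated reads (9.48% of reads, against 44.0% in wild type), and 31.9% of them were fully unmethylated (interval 24.9 to 39.9), against 23.9% in the wild-type tail. The stray rate was 8.98%, and the difference from wild type of 0.593 points was within its half-width of 0.949. Reads with 5 to 8 stray calls were 28.5% of the knockout reads and 18.0% of the wild-type reads. With a bound of 20% of calls in place of 30%, the difference in stray rate was -1.07 points, and with identical read patterns counted once it was 2.26 points. The dead Gzf1 knockout pup differed from this adult. Of its 79 mostly unmethylated reads, 4 were fully unmethylated (5.06%, interval 1.99 to 12.3), and the stray rate was 16.2%, higher than in each of the 5 heterozygous tails of the same sequencing order. The pup and the knockout adult are a single library each, so age, death at birth and sequencing order cannot be told apart. Against the heterozygous tails, genotype cannot be told apart from death at birth or age.

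Reads with 0 or 1 stray call gave no common direction for loss of Gzf1. Those with 1 made up 24.5% of such reads in knockout mESC, 5.65 points above wild type (half-width 7.43). In trunk only 2 knockout reads were of this kind and both had 1 stray call, so the difference there, 62.9 points, rests on 2 reads. In tail the share was 35.2%, which is 12.3 points lower than in wild type (difference -12.3). Over the 3 sources the mean difference was 18.7 points, and flipping the signs of the sources in an exact permutation test, two-sided, gave p = 0.750, with 0.250 the smallest that 3 sources allow. Without trunk the mean difference was -3.34 points. In the dead pup the share was 60.0% of 10 reads, 10.2 points above the heterozygous mean. The exact permutation test gave p = 0.167, the smallest that 1 against 5 allows, and 0.200 to 0.400 when an animal was left out.

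As a share of all reads with 5 or more calls, the reads near the bound were few in most libraries. In wild-type mESC no read had over 25% and at most 30% of calls methylated, and 5 reads had over 30% and at most 35%. In the wild-type tail there were 28 and 43 such reads, in Gzf1 knockout trunk 15 and 29, and in the dead pup 20 and 28. On both sides of the bound the first 5 CpGs of these knockout reads had a higher level than the other 24. In trunk their level was 91.9% just inside and 81.9% just outside, against 14.6% and 21.7% at the others. In the dead pup it was 83.0% and 93.5%, against 16.0% and 19.1%. The reads just inside the bound were 15 of the 78 mostly unmethylated reads of knockout trunk and 20 of the 79 of the dead pup. Reads over 30% and under 70% methylated outnumbered the mostly unmethylated reads without Gzf1. They were 355 against 290 in mESC, 193 against 78 in trunk, 170 against 144 in adult tail and 296 against 79 in the dead pup. In wild-type mESC they were 64 against 728.

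Stray calls were not spread evenly over the amplicon. A CpG's stray level is the share, in percent, of its calls on mostly unmethylated reads that were methylated. In tail it was highest at CpG 59 in the wild-type animal and in all 5 heterozygous animals. The level there was 39.6% in wild type, and 44.2%, 41.1%, 41.8%, 34.4% and 48.3% in heterozygous animals 1 to 5. CpG 72 came second in each of these 6 libraries, with 27.7% in wild type and 22.0% to 27.6% in the heterozygous animals. CpG 55 was next in 5 of the 6, with 19.8% in wild type and 12.9% to 20.7% in the heterozygous animals. The exception was animal 4, in which CpG 214 had 18.0%. The median over the 29 CpGs was 5.98% in wild type and 5.94% to 7.98% in the heterozygous animals.

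The lowest stray levels of tail reads lay at CpGs 131, 147 and 149. CpG 147 was lowest in the wild-type tail, with 0.794% (6 of 756 calls), and had 2.43% to 4.76% in the heterozygous tails. CpG 131 was lowest in heterozygous animals 1, 3 and 4, with 2.29%, 1.62% and 1.33%. CpG 149 was lowest in animals 2 and 5, with 1.66% and 2.32%. The profile was alike between animals. Over the 29 CpGs, Pearson's r of the stray levels was 0.953 to 0.975 between the wild-type tail and each heterozygous tail, and 0.909 to 0.973 among the heterozygous tails. These CpGs lie on the same reads, and the coefficients are descriptions.

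**Figure D2:**
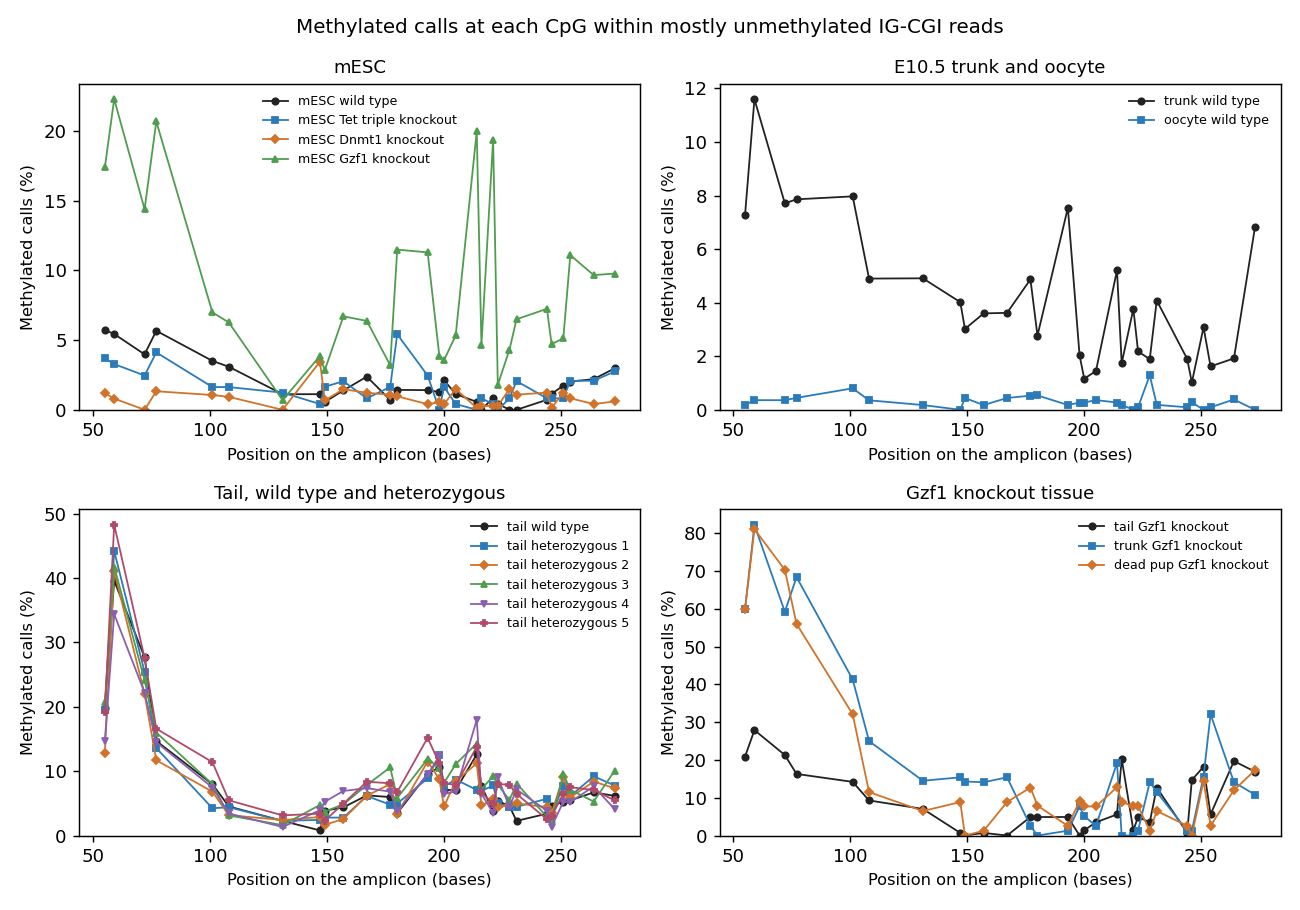
Stray level (vertical axis, % of the calls on mostly unmethylated reads) against the position of each CpG on the amplicon (horizontal axis, bases), with 1 line per library and a separate vertical scale in each panel. The 6 lines of wild-type and heterozygous tail share a peak at CpG 59 of 34.4% to 48.3%, while the wild-type oocyte line stays at or below 1.29%.

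The same end of the amplicon led in wild-type mESC and trunk, at lower levels. In wild-type mESC the highest CpGs were CpG 55 with 5.73%, CpG 77 with 5.67% and CpG 59 with 5.44%, and CpG 216, CpG 228 and the CpG that is number 23 of the 29 had no stray call. In wild-type trunk CpG 59 had 11.6% (79 of 683 calls, interval 9.38 to 14.2), followed by CpG 101 with 7.97% and CpG 77 with 7.86%. The lowest CpG in trunk was CpG 246, with 1.02%. In Tet triple knockout mESC CpG 180 had 5.42%, CpG 77 had 4.12% and CpG 55 had 3.70%, and CpGs 198, 214 and 223 had none.

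The libraries nearest to no methylation had other leading CpGs. In Dnmt1 knockout mESC the highest was CpG 147 with 3.46% (26 of 752 calls, interval 2.37 to 5.02), then CpG 228 (11 of 735 calls) and CpG 205 with 1.49%. CpGs 72 and 131 had 0 of 744 and 0 of 753 calls there, which allows up to 0.403% and 0.398%. In wild-type oocytes the highest was CpG 228 with 1.29% (14 of 1088 calls), then CpG 101 with 0.801% and CpG 180 with 0.538%. CpGs 147, 221, 251 and 273 had no stray call in oocytes. Against the 6 wild-type and heterozygous tails, r over CpGs ran from -0.00131 to 0.128 for the oocytes and from -0.204 to -0.100 for Dnmt1 knockout cells. It ran from 0.651 to 0.744 for wild-type trunk and from 0.585 to 0.703 for wild-type mESC.

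CpG number 23 of the 29, chosen from earlier results of these data, was also followed in each source. It had 0 of 701 in wild-type mESC, 0.185% in wild-type oocytes (2 of 1084), 4.08% in wild-type trunk and 2.28% in the wild-type tail. The heterozygous tails had 4.47%, 5.01%, 8.08%, 7.16% and 6.47% there, all above the wild-type tail. The wild-type tail also lay below the range of the heterozygous tails at CpG 147, and above it at CpGs 72, 216 and 246. At all other CpGs of the 29 the wild-type tail lay within that range. A single library can fall outside the range of 5 others by chance, and these differences were not tested. Without Gzf1 the level at CpG number 23 was 6.50% in mESC, 11.5% in trunk, 12.7% in adult tail and 6.49% in the dead pup.

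In the libraries without Gzf1 the first CpGs also led when all mostly unmethylated reads were taken. In knockout mESC CpG 59 had 22.3%, CpG 77 had 20.7% and CpG 214 had 56 of 280 calls, and CpG 131 was lowest with 0.694%. In knockout trunk CpG 59 had 82.2%, CpG 77 had 68.4% and CpG 55 had 60.0%, and CpGs 180, 216 and 221 had no stray call. In the dead pup CpG 59 had 81.1%, CpG 72 had 70.3% and CpG 55 had 60.0%, and CpGs 149 and 246 had none. In the knockout tail CpG 59 had 27.9%, CpG 72 had 21.3% and CpG 55 had 20.9%, and CpGs 149, 167 and 198 had none. The mostly unmethylated reads of knockout trunk and of the dead pup are thus methylated at most calls of CpGs 55, 59, 72 and 77, with levels of 56.0% to 82.2%, and the adult knockout tail is not.

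The first 5 CpGs, 55 to 101, were set against the other 24, a division made with the values known. In the wild-type tail the 5 first CpGs had a stray level of 21.9% (817 of 3731 calls, interval 20.6 to 23.3) and the others 5.57% (995 of 17867, interval 5.24 to 5.91). In the heterozygous tails these levels were 21.1% ± 2.47 and 6.41% ± 0.621 (SD, n = 5). The ratio of both levels was 3.93 in wild type and 2.98 to 3.58 in the heterozygous animals. In wild-type mESC the levels were 4.86% and 1.25%, and in wild-type trunk 8.48% and 3.27%. Tet triple knockout mESC had 3.03% and 1.36%. On reads with 0 or 1 stray call the gap in mESC was smaller, with 0.811% and 0.652% in wild type (ratio 1.25 in place of 3.89) and 0.901% and 0.700% in Tet triple knockout (1.29 in place of 2.23). Such reads of the wild-type tail had 5.91% and 0.816%, a ratio of 7.24. Without Dnmt1 the first 5 CpGs did not stand out, with 0.883% (interval 0.629 to 1.24) and 0.862% (0.736 to 1.01). In wild-type oocytes the levels were 0.430% (0.289 to 0.640) and 0.278% (0.221 to 0.349), so the intervals overlap.

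Without Gzf1 the gap was 62.1% against 9.94% in trunk, 59.6% against 7.43% in the dead pup, 20.1% against 6.70% in tail and 16.3% against 7.03% in mESC. On reads with 0 to 4 stray calls the knockout tail had 4.22% against 3.53% (103 reads). Such reads had 33.6% against 6.59% in trunk, 37.3% against 2.47% in the dead pup and 7.52% against 2.63% in mESC. On reads with 0 or 1 stray call the knockout tail had 1.15% against 1.26% (71 reads). All of CpGs 55, 59, 72 and 77 were methylated on 34.2% of the mostly unmethylated reads of knockout trunk (25 of 73 reads called at all 4) and on 34.2% of those of the dead pup (25 of 73). The share was 15.2% in the knockout tail, 7.47% in knockout mESC, 6.55% in the wild-type tail, 3.52% in wild-type trunk and 2.74% in wild-type mESC. In Dnmt1 knockout mESC and in wild-type oocytes no read had all 4, of 735 and 1100 reads.

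**Figure D3:**
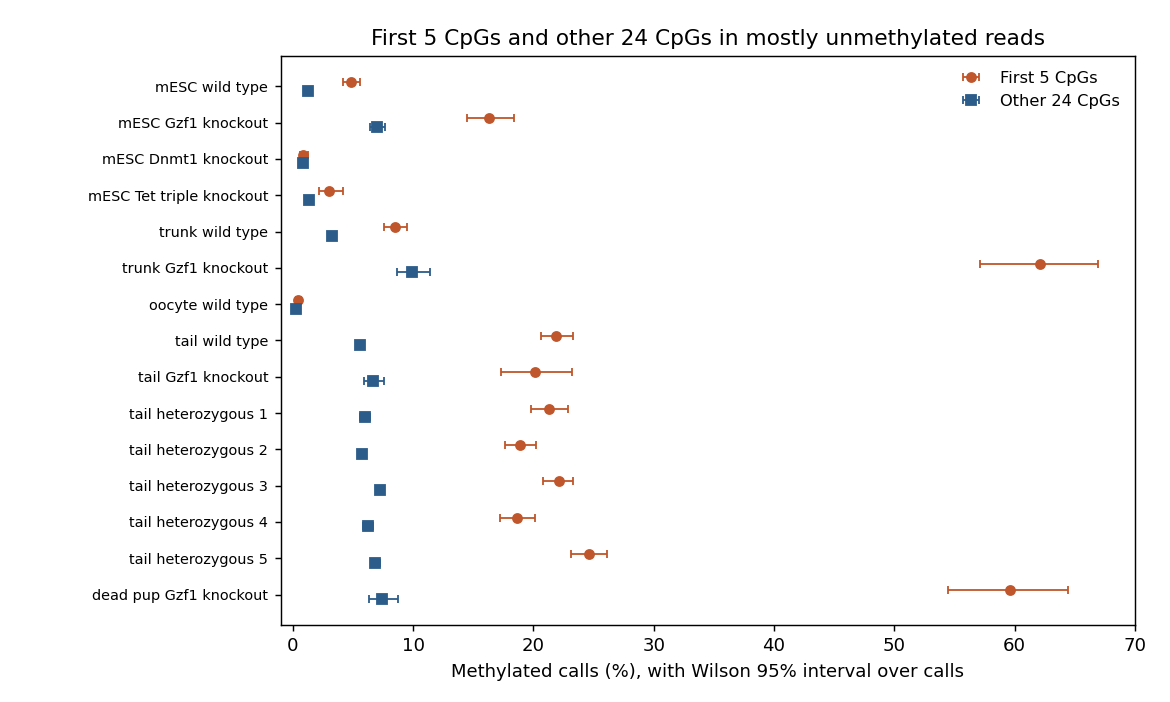
Stray level (horizontal axis, %) of CpGs 55 to 101 (circles) and CpGs 108 to 273 (squares) within mostly unmethylated reads of each library, with Wilson 95% intervals over calls. The circles lie near 60% in Gzf1 knockout trunk (62.1%) and the dead pup (59.6%), between 18.6% and 24.6% in the other tails, and beside the squares in Dnmt1 knockout mESC.

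On the mostly methylated reads the first 5 CpGs had a lower level than the others in the wild-type, heterozygous and Tet triple knockout libraries that held such reads. They were methylated in 93.7% of calls in the wild-type tail and the other 24 in 95.9%, and in wild-type mESC the levels were 90.7% and 95.9%. The Gzf1 knockout libraries had a higher level at the first 5 CpGs than at the others on these reads too. The levels were 95.7% and 92.8% in trunk, 97.2% and 88.4% in the dead pup, 96.8% and 91.9% in adult tail and 90.0% and 88.6% in mESC. All these reads have at least 70% of calls methylated by the rule, which bounds such gaps. Over the CpGs, r between the stray level and the level on mostly methylated reads was -0.720 in wild-type mESC, 0.500 in the dead pup and -0.0470 in the wild-type tail. The points share the library, and the coefficients have no test.

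The position of the stray call was then compared on reads with exactly 1, where the bound removes no read. In the wild-type tail that call lay at CpG 59 in 59 of 159 reads called there (37.1%), and in the heterozygous tails in 35.1% ± 2.90 (SD, n = 5, range 32.4% to 38.3%). In wild-type mESC it lay there in 3.33% of reads (4 of 120), in wild-type trunk in 9.09% (17 of 187), and in wild-type oocytes in 4.44% (4 of 90). Every heterozygous tail thus had the single stray call at CpG 59 at least as often as 32.4% of reads, and no wild-type library of another source above 9.09%.

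Each CpG was compared by Fisher's exact test (two-sided), and p-values were adjusted over the CpGs of a library pair by the Benjamini-Hochberg method. Wild-type tail and wild-type mESC differed at 4 of 29 CpGs (13.8%). The call lay at CpG 59 more often in tail (adjusted p = 2.93e-11, exact test), as was CpG 72, with 11.8% against 1.65% (adjusted p = 0.00960). CpG 200 was lower in tail, at 0 of 163 reads against 7.20% (adjusted p = 0.00670, exact test), and so was CpG 147, at 0 of 165 against 4.88% (adjusted p = 0.0410). Between tail and trunk 3 of 29 CpGs differed (10.3%). CpG 59 (adjusted p = 9.12e-09, exact test) and CpG 55 (11.2% against 2.13%, adjusted p = 0.00584) were higher in tail, and CpG 131 was lower (0 of 163 against 6.81%, adjusted p = 0.00438). Between tail and oocytes 3 of 29 CpGs differed (10.3%), with CpG 59 higher in tail (adjusted p = 2.86e-08, exact test) and CpG 228 and CpG 101 higher in oocytes. The single call lay at CpG 228 in 14.1% of oocyte reads (13 of 92) and in 2.47% of tail reads (adjusted p = 0.0134, exact test).

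The other pairs of wild-type sources were compared in the same way. Between oocytes and mESC 1 of 29 CpGs differed (3.45%), CpG 228, with 14.1% against 0 of 124 reads (adjusted p = 0.000262, exact test). Trunk and mESC differed at 0 of 29 CpGs by Fisher's exact test after adjustment, with 7 at an unadjusted p under 0.05. CpG 72 stood furthest apart, with 8.51% in trunk and 1.65% in mESC. Oocytes and trunk also differed at 0 of 29, with 4 at an unadjusted p under 0.05. When all stray calls of the reads were used, 9 CpGs differed between trunk and mESC, 1 between oocytes and trunk and 1 between oocytes and mESC. The same count was 8 between tail and mESC, 14 between tail and trunk and 3 between tail and oocytes. Whether some pairs of sources differ more than others was not tested.

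Within mESC the single stray call moved at 1 CpG without Gzf1. At CpG 214 it lay in 8 of 36 knockout reads (22.2%) and 2 of 125 wild-type reads (1.60%), the 1 of 29 CpGs called (3.45%, adjusted p = 0.00295 by Fisher's exact test). In Dnmt1 knockout cells 0 of 29 CpGs were called, with 4 at an unadjusted p under 0.05, and CpG 147 stood furthest apart, with 16.2% of reads (23 of 142) against 4.88% (adjusted p = 0.0891, exact test). In Tet triple knockout cells 0 of 29 were called, with 1 at an unadjusted p under 0.05, and CpG 180 stood furthest apart, with 15.2% against 5.79% (adjusted p = 0.359, exact test). With all stray calls in place of reads with 1, the counts were 9, 5 and 2.

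The Gzf1 knockout tail had its single stray calls elsewhere than the wild-type tail. Of 29 CpGs, 4 differed (13.8%) between these libraries of 1 sequencing order. CpG 59 was lower in the knockout, with 1 of 24 reads (4.17%) against 37.1% (adjusted p = 0.00743, exact test). CpG 216 (29.2% against 0.613%, exact test, adjusted p = 5.20e-05), CpG 251 (20.8% against 0.621%, adjusted p = 0.00197) and CpG 273 (30.4% against 5.96%, adjusted p = 0.0108) were higher. The knockout library gave 25 such reads, and its 144 mostly unmethylated reads held 55 distinct call patterns. Its most common complete pattern with stray calls, methylated at CpGs 216 and 264 alone, came 10 times in 129 complete reads. Whether these repeats are PCR copies was not tested. In this knockout the first 5 CpGs took 16.0% of the stray calls of reads with 1 and 45.6% of those of reads with 5 to 8, while the wild-type tail had 60.0% and 41.2%.

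No CpG was called against the wild-type tail in all 5 heterozygous animals (0 of 29 by Fisher's exact test). In single animals 0 or 1 of 29 CpGs were called. Animal 1 differed at CpG 264 (11.4% against 1.89%, exact test, adjusted p = 0.0292), animal 3 at CpG 193 (0.588% against 7.98%, adjusted p = 0.0183) and animal 4 at CpG 193 (0 of 113 reads, adjusted p = 0.0289). Animals 2 and 5 differed at none, with 3 and 2 CpGs at an unadjusted p under 0.05. With all stray calls, 4 and 0 CpGs were called in these 2 animals. Knockout trunk had 2 reads with 1 stray call and the dead pup 6, so these were not tested.

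Stray calls came in groups along the read in most libraries. In the wild-type tail, a CpG was methylated in 617 of 1761 cases when the CpG just before it was a stray call and in 5.47% of 19011 cases when it was not. In the heterozygous tails the values were 29.1% ± 0.653 and 6.61% ± 0.645 (SD, n = 5). In wild-type mESC they were 43.0% and 0.953%, and in wild-type trunk 30.1% and 2.94%. At a distance of 5 CpGs the wild-type tail had 8.65% and 5.31%, and at 10 CpGs 7.76% and 6.03%. Without Dnmt1 a stray call was followed by another in 1.10% of cases and an unmethylated call in 0.841%. In oocytes none of 93 stray calls had a stray call at the next CpG. These values pool CpGs of unlike stray level. In the wild-type tail the CpG levels alone give 240 of the 617 neighbouring pairs, so the observed count was 2.57 times that. The same ratio was 1.93 to 2.64 in the heterozygous tails, 6.13 in wild-type trunk and 15.4 in wild-type mESC. Without Gzf1 it was 4.36 in mESC, 3.83 in adult tail, 1.27 in trunk and 1.29 in the dead pup. In knockout trunk a stray call was still followed by another in 47.0% of cases, against 10.2% after an unmethylated call. In the dead pup these values were 49.4% and 7.95%. High levels at the first CpGs of these 2 libraries limit how far the ratio can rise, so a low ratio does not show that grouping was absent.

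**Figure D4:**
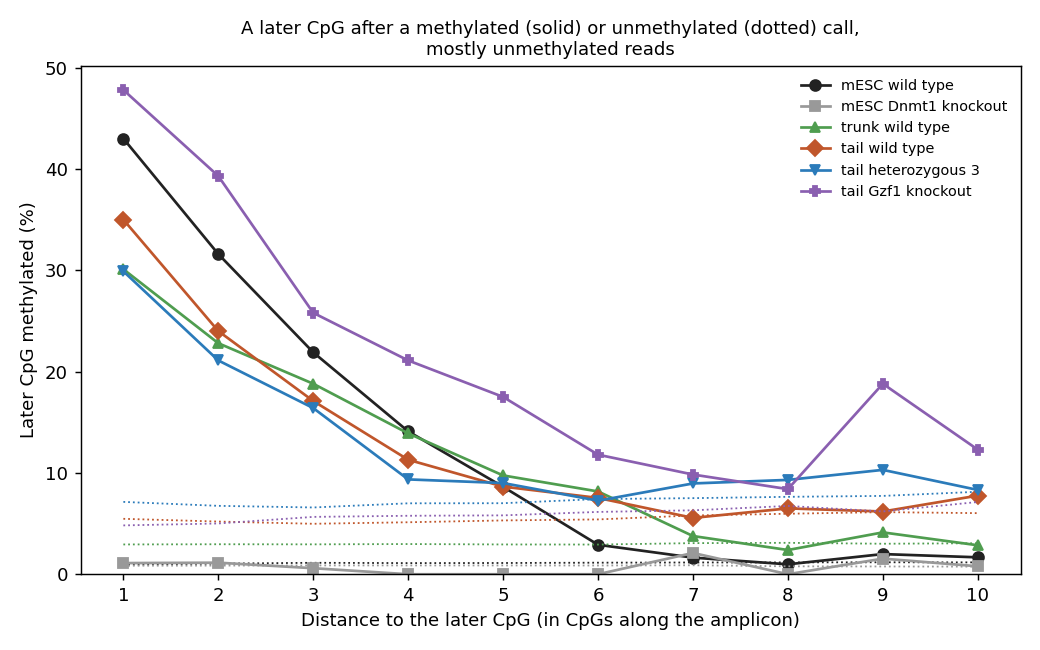
Percentage of calls that are methylated at a CpG (vertical axis) when the CpG 1 to 10 places before it on the same read (horizontal axis) is methylated (solid lines with markers) or unmethylated (dotted lines), for 6 libraries. Heterozygous animal 3 stands for the heterozygous tails because it has the most reads. The solid lines start at 29.9% to 47.8% in all but Dnmt1 knockout mESC and fall towards the dotted lines, and in Dnmt1 knockout mESC both start near 1%.

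The CpGs with high stray levels are themselves neighbours at the start of the amplicon. Reads with exactly 2 stray calls were set against the share of neighbouring pairs that the CpG frequencies of the stray calls in that library give. In the wild-type tail 46 of 124 such reads (37.1%, interval 29.1 to 45.9) had both calls on neighbouring CpGs, against 11.7% from the frequencies, a ratio of 3.17. In the heterozygous tails the share was 28.4% ± 3.90 against 10.3% ± 0.671, with ratios of 2.35, 2.36, 3.09, 3.56 and 2.51. Wild-type mESC had a ratio of 4.33 (10 of 22 reads), Gzf1 knockout mESC 2.85 (5 of 23, and 1.88 on reads with at least 10 calls), and the Gzf1 knockout tail 5.02 (10 of 21). The ratio of that tail rests on few patterns. Of its complete reads, 7 were methylated at the neighbouring CpGs 246 and 251 alone and 10 at CpGs 216 and 264 alone. The first 5 CpGs took 4.76% of the stray calls of its reads with 2, against 38.1% of all its stray calls, which set the frequencies. In Dnmt1 knockout mESC 2 of 20 reads had neighbouring calls (interval 2.79 to 30.1), against 6.10% from the frequencies. In wild-type trunk 8 of 77 reads did (10.4%, interval 5.36 to 19.2), against 8.15%. In these last libraries the interval holds the value from the frequencies. With identical read patterns counted once, the ratio was 2.04 in the wild-type tail.

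In the wild-type and heterozygous tails and in wild-type mESC, methylation at neighbouring CpGs at the start of the amplicon tended to come on the same reads. In the wild-type tail CpG 72 was methylated in 46.2% of reads with a stray call at CpG 59 (135 of 292) and in 15.7% of the others (70 of 447). The heterozygous tails had 37.3% ± 4.00 and 14.9% ± 2.95 (SD, n = 5). CpG 77 was methylated in 40.3% of wild-type tail reads with a stray call at CpG 72 and in 4.66% of the others. In wild-type mESC the values for CpG 77 were 89.3% (25 of 28) and 2.08% (14 of 674). CpG 273, at the far end, was methylated in 5.28% of wild-type tail reads with a stray call at CpG 59 and in 28 of 400 reads without. The dead pup did not show this at every pair. There CpG 59 was methylated in 77.8% of reads with CpG 55 methylated (35 of 45) and 86.2% of the others (25 of 29). For CpG 72 after CpG 59 the values were 72.9% and 64.3%, and for CpG 77 after CpG 72 they were 76.9% and 9.09%.

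Reads with 3 or more stray calls differed in shape between sources. In wild-type mESC 24 of 43 such reads (55.8%) had all their stray calls in 1 unbroken block, and 39 of 43 had a run of at least 3. In wild-type trunk 28 of 105 (26.7%) had 1 block, in the wild-type tail 27 of 291 (9.28%), and in the heterozygous tails 7.02% ± 1.18 (SD, n = 5). The first called CpG of the read was methylated in 58.1% of these reads in wild-type mESC, 36.2% in wild-type trunk and 37.5% in the wild-type tail. The last called CpG was methylated in 18.6%, 14.3% and 9.97%. In knockout trunk 8 of 70 reads had 1 block and 46 of 70 began with a methylated call. The most common complete pattern of knockout trunk, methylated at CpGs 55, 59, 72, 77, 101, 108, 131 and 214, came 8 times in 55 complete reads.

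Reads with stray calls at the first 5 CpGs and nowhere else numbered 153 of 762 in the wild-type tail. In heterozygous animals 1 to 5 they were 103 of 581, 122 of 679, 148 of 873, 96 of 542 and 109 of 655. In wild-type mESC they were 39 of 728, in wild-type trunk 69 of 705 and in wild-type oocytes 22 of 1178. Together with the fully unmethylated reads, reads with no stray call at CpGs 108 to 273 made up 44.0% of the mostly unmethylated reads of the wild-type tail, and for the heterozygous tails the share was 39.0% ± 5.31 (SD, n = 5). This compares with 79.3% in wild-type mESC, 56.5% in wild-type trunk and 93.8% in wild-type oocytes. Without Gzf1 it was 48.3% in mESC, 39.6% in tail, 34.2% in the dead pup and 10.3% in trunk. The pattern with CpG 59 alone methylated was the most common complete pattern with a stray call in each of the wild-type and heterozygous tails, with 52 of 610 complete reads in wild type and 40 of 495, 48 of 593, 53 of 759, 34 of 454 and 37 of 559 in animals 1 to 5.

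The 1178 oocyte reads held 161 distinct call patterns, where an uncalled CpG makes another pattern, and the 762 reads of the wild-type tail held 351. Of the 201 complete patterns of the wild-type tail with at least 2 stray calls, 56 (27.9%) also occurred in another library. Complete reads, called at all 29 CpGs, made up 62.5% to 89.6% of the mostly unmethylated reads of a library. In wild-type mESC CpG 273 had 537 calls and CpG 55 had 698.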

How the data were processed

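Per the labels' protocols, DNA was bisulfite-converted with a Zymo kit, amplified by nested PCR and sequenced as Oxford Nanopore amplicons. The deposited files give 1 call per read and CpG, made by the authors with the Bismark methylation extractor, which is version 0.22.3 per the file headers. Bismark 0.24.2 and the build mm10 come from the submitters' processing notes. How reads were aligned and filtered is not stated in these sources. Reads were aligned to amplicon references, and no amplicon sequence was used here.

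A position was taken as a CpG of the amplicon when 10% or more of some library's reads had a call there. Other positions held 0.00302% to 0.0416% of calls. Profiles use libraries with at least 50 mostly unmethylated reads. Fisher tests used reads with 1 stray call, CpGs with at least 10 such reads and libraries with at least 20, and called an adjusted p under 0.05. Intervals are Wilson 95%, and the limit for a count of 0 is 3 counts of the total. Half-widths combine those of both libraries. Intervals and half-widths of stray rates, and of the first 5 and other CpGs, count each call as independent. They leave out the grouping of stray calls within reads. Group values were compared by exact permutation. Named CpGs are the 3 highest and the lowest of each library, the called CpGs of each pair or else the largest difference, and CpG number 23 of the 29. Only the Fisher test was checked on simulated reads, drawn independently, for some of the library pairs. Repeated patterns and the permutation tests were not simulated. Alternatives were 10 calls per read, a bound of 20%, identical patterns counted once, calls at every position, 30 reads per CpG, all stray calls, a 5-point minimum and leaving out animals or sources. The edge comparison and its alternatives were added after seeing the data. The reads, the lists and the tests were chosen with earlier results of these data known. Software was Python 3.11.15, NumPy 2.4.6 and SciPy 1.17.1.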

Additional observations from a re-analysis of the deposited data

Results flagged for a closer look

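The share of fully unmethylated reads among mostly unmethylated reads differed from wild type in opposite directions in Gzf1 knockouts. It was lower in the knockout by -34.6 points in mESC and -46.7 points in trunk, and higher by 8.06 points in adult tail (difference of the knockout from wild type). Each source had 1 library per genotype, and the difference between the sources was not tested. The combined 95% half-width over reads was 8.11 points in tail, so the difference there was within counting error.

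Among the heterozygous tails, animal 2 had a stray level of 4.70% at CpG 216, apart from the other 4 animals, which had 6.51% to 7.23%. It was the 1 of 37 measures in which an animal lay outside the limit of Dixon's test for 5 values, and chance flags about 1 in 20.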

How the results depend on the processing

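The size of the stray rate differences depended on the bound and on repeated patterns. With a bound of 20%, Gzf1 knockout minus wild type was 3.87 points in mESC, 9.08 in trunk and -1.07 in tail, a change of sign. Dnmt1 knockout minus wild type was -0.554, and the dead pup lay 3.54 points above the wild-type tail and 2.98 above the heterozygous tails. With identical patterns counted once, the Gzf1 differences were 7.93, 9.95 and 2.26 points, those of Dnmt1 and Tet triple knockout -2.72 and -0.748, and those of the dead pup 5.57 and 5.39. A lower bound removes the reads with most stray calls by construction, and the cause of the changes with identical patterns was not tested. Of 42 settings of these differences 29 stayed within the error, 12 moved and 1 changed sign.

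Leaving out 1 source gave -3.34 to 34.3 points for the share with 1 stray call over sources, and without pairing by source the value was 18.7 points (no replicate block, exact permutation p = 0.700). No paired analysis by replicate number was possible because the groups compared share at most 1 number. With all stray calls, called CpGs were 9 for Gzf1, 5 for Dnmt1 and 2 for Tet triple knockout mESC, 14 for the knockout tail, 9 for trunk against mESC, 8 for tail against mESC, 1 for oocytes against trunk and 14 for tail against trunk. Stray calls of a read are not independent of each other. With identical patterns counted once, the neighbour ratio was 2.04 in the wild-type tail and 1.65, 2.34 and 1.55 in heterozygous animals 1, 3 and 5. Counting patterns once was not applied to reads with 1 stray call, where the pattern is the position. The ratio of the first 5 CpGs to the others turned below 1 in Dnmt1 knockout mESC with patterns counted once (0.747) and in the knockout tail on reads with 0 or 1 stray call (0.916). On such reads it was 1.25 in wild-type mESC, 1.29 in Tet triple knockout, 7.24 in the wild-type tail, 4.13 to 7.25 in the heterozygous tails and 25.9 in the dead pup (10 reads). Of 45 settings of this ratio 20 stayed within the error, 23 moved and 2 changed sides. Knockout trunk and the dead pup rest on 78 and 79 reads.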
